A study of Mus musculus with 15 samples.

Results

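The genes described here encode the pore-forming and auxiliary subunits of sodium, calcium and potassium channels and of the hyperpolarization-activated Hcn channels. They were chosen by symbol alone, using the one row per gene that the deposited table designates as Best, as every gene named Scn, Cacna, Cacnb, Cacng, Kcn or Hcn followed by the usual subunit letters and numbers. The symbols gave 116 of the 17090 genes with counts: 8 sodium channel pores and 3 sodium channel beta subunits, 7 calcium channel pores and 14 calcium channel auxiliary subunits, 80 potassium channel subunits and 4 Hcn channels. The potassium genes comprised 37 voltage-gated pores (Kcna, Kcnb, Kcnc, Kcnd, Kcnf, Kcng, Kcnh, Kcnq, Kcns and Kcnv), 10 auxiliary subunits (Kcnab, Kcne and Kcnip), 11 genes of calcium- or sodium-activated channels (Kcnm, Kcnn, Kcnt and Kcnu), 12 inward rectifiers (Kcnj) and 10 tandem-pore channels (Kcnk). The Kcnj, Kcnk and Kcnn channels lack a classical voltage-driven gate and are included because their symbols match. The gene listed under the older symbol Scn2a1 is not matched, and its RarαDN and control values overlapped at both ages.

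Voltage-gated sodium channels carry the rapid upstroke of the action potential, voltage-gated potassium channels repolarize the membrane, and voltage-gated calcium channels couple depolarization to transmitter release and gene transcription. Tandem-pore and inwardly rectifying potassium channels set the resting potential, and auxiliary subunits control the trafficking and gating of the pores they bind. Enteric neurons begin to acquire electrical activity while neural crest-derived precursors are still colonizing the bowel.

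RNA was sequenced from enteric neural crest-derived cells (ENCDC), the precursors of enteric neurons and glia, which were flow-sorted on a fluorescent reporter from single organs of mice on a mixed background. RarαDN is a dominant-negative retinoic acid receptor α that blocks retinoic acid receptor signaling once Cre removes a LoxP-flanked stop. The E11.5 stomach groups were RarαDN LoxP/+; Wnt1Cre; ROSA26TdTomato (n = 4) and control Wnt1Cre; ROSA26TdTomato (n = 4), and Wnt1Cre acts in the dorsal neural tube and in most neural crest derivatives. The E13.5 colon groups were RarαDN LoxP/+; RETCreERT2-EYFPTandem (n = 3) and control RETCreERT2-EYFPTandem (n = 4), all given tamoxifen at E10.5, with CreERT2 expressed from the Ret locus. Controls carried the Cre and the reporter but no RarαDN allele. Age, organ, driver, reporter and tamoxifen differ together between the experiments, so that their parts in any difference between E11.5 and E13.5 cannot be told apart.

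Libraries held 6065029 to 12121327 counts each, and values are given as CPM, the share of a library's counts that falls on a gene, with library totals scaled by the trimmed mean of M-values (TMM). Rara itself did not differ between RarαDN and control at either age (adjusted p = 0.824 at E11.5 and 0.857 at E13.5, edgeR), and whether reads from the transgene count toward it is not given. The ENCDC marker Ret was at 1167 ± 621 CPM in E11.5 controls and at 91.7 ± 114 CPM in E11.5 RarαDN (SD, n = 4 each; adjusted p = 0.191), while Sox10 was at 307 ± 149 and 535 ± 250 CPM (adjusted p = 0.355). At E13.5 Ret was at 294 ± 50.1 and 291 ± 109 CPM and Sox10 at 58.97 ± 25.5 and 151 ± 101 (SD, n = 4 and 3). Summed levels of other gene groups moved with genotype. The summed CPM of 16 pan-neuronal genes ranged from 3392 to 4523 in the E11.5 controls and from 651 to 1247 in E11.5 RarαDN, with 8 of the 16 genes lower by the test and Dcx at 0 in every RarαDN library. At E13.5 the same sum was 4803 to 5817 in controls and 3309 to 4258 in RarαDN (4 lower, 1 higher). The summed CPM of 7 melanoblast genes was 20.8 to 33.3 in E11.5 controls and 1233 to 2763 in E11.5 RarαDN, with 6 of the 7 higher by the test and Mlana and Slc45a2 at 0 in every control. The sum of 9 leukocyte genes was 0.55 to 17.2 and 33.3 to 198.7 in the same groups (2 higher), and that of 6 endothelial genes was 35.2 to 72.6 and 0 to 3.05, with 3 lower, and with Pecam1, Flt1 and Cldn5 at 0 in RarαDN and Cdh5 at 0 in both groups. At E13.5 the sum of 10 erythroid genes ran from 19.6 to 3710 in controls and from 0.675 to 74.5 in RarαDN (hemoglobin genes alone had 703 and 3551 CPM in controls 2 and 3 and at most 77.2 CPM in any other E13.5 library), and the sum of 11 glial and progenitor genes from 476 to 752 and from 1335 to 1529 (1 higher, Ednrb). At E11.5 the glial and progenitor sums overlapped (1402 to 2073 and 1317 to 2030). The sum of 10 mesenchyme and smooth muscle genes was 69.7 to 195.9 in controls and 175.9 to 353 in RarαDN at E11.5 (1 higher, Tagln), and 135.1 to 303.1 and 46.4 to 121.3 at E13.5 (2 lower). The sums of 6 epithelial genes overlapped at both ages. Of all tested genes, 2.93% were lower and 3.07% higher at E11.5, and 5.55% were lower and 2.78% higher at E13.5. In sorted bulk samples of this kind, fewer cells of a type and less RNA per cell cannot be told apart, and the part of these shifts in the channel results was not tested.

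Fewer channel genes had at least 1 count in E11.5 RarαDN libraries than in their controls, and more in E13.5 RarαDN libraries than in theirs. A count was found for 81, 82, 85 and 87 of the 116 genes in the E11.5 control libraries and for 31, 48, 33 and 43 in the E11.5 RarαDN libraries. At E13.5 the numbers were 47, 43, 53 and 61 in controls and 68, 69 and 62 in RarαDN. The groups did not overlap at either age, and the direction was opposite. At 10 counts or more the groups overlapped at both ages. The numbers were then 36, 36, 38 and 53 in controls and 23, 38, 21 and 30 in RarαDN at E11.5. At E13.5 they were 40, 31, 37 and 48 in controls and 31, 40 and 45 in RarαDN. When each library was scaled to 6000000 counts, the numbers expected with at least 1 count were 76.0 to 82.6 against 28.9 to 46.2 at E11.5 and 42.4 to 59.2 against 59.4 to 68.0 at E13.5. The number of all genes expected at that depth moved the same way by a smaller proportion: 14258 to 14515 in E11.5 controls against 12342 to 13113 in E11.5 RarαDN, and 12287 to 12962 against 13354 to 13733 at E13.5. Over all libraries of a group, 47 channel genes were at 0 in E11.5 RarαDN and 7 in E11.5 controls (2 in both), while 30 were at 0 in E13.5 RarαDN and 39 in E13.5 controls (22 in both).

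**Figure D1:**
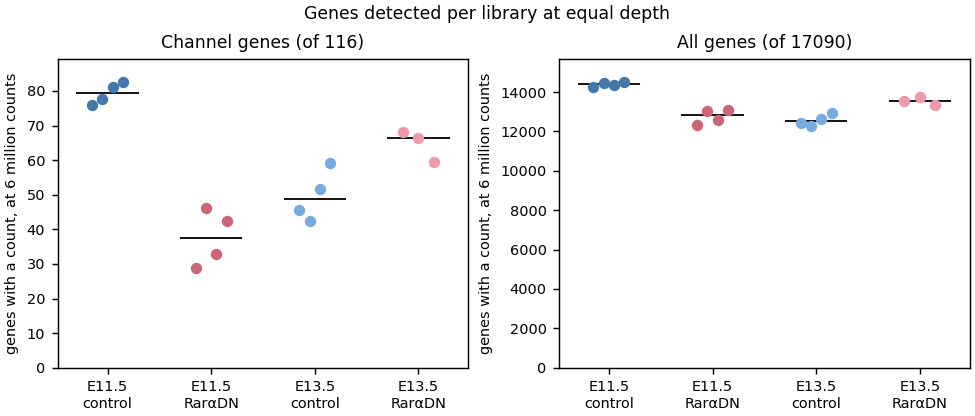
Number of channel genes (left) and of all genes (right) with at least 1 count in each library, the number predicted for 6000000 counts; each point is 1 library and each line a group median. For the channel genes the E11.5 RarαDN libraries lie at 28.9 to 46.2, under all E11.5 controls (76.0 to 82.6), and the E13.5 RarαDN libraries at 59.4 to 68.0, above all E13.5 controls (42.4 to 59.2).

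The summed channel CPM did not separate the groups. It was 445 ± 108 CPM in E11.5 controls and 430 ± 178 in E11.5 RarαDN (SD, n = 4 each), and 348 ± 94.2 (n = 4) and 270 ± 36.2 (n = 3) at E13.5. Kcnk5, a tandem-pore potassium channel sensitive to extracellular pH, alone made up 31.6% of the summed channel CPM in E11.5 controls and 40.2% in E11.5 RarαDN, 4.04% in E13.5 controls and 16.8% in E13.5 RarαDN. Per kb of transcript, which allows genes to be compared, Kcnk5 was the most abundant channel gene over the 15 libraries (27.3 CPM per kb), followed by Cacnb3, a beta subunit that brings calcium channel pores to the membrane (20.1), the inward rectifier Kcnj12 (6.26) and Kcnmb4, an auxiliary subunit of the large-conductance calcium-activated potassium channel (4.50). In the other families the most abundant gene per kb was Kcna6 among voltage-gated potassium pores (3.52), Kcnip3 among potassium auxiliary subunits (3.15), the T-type pore Cacna1h among calcium pores (2.79), Scn3b among sodium beta subunits (1.23), Hcn3 (0.688) and Scn8a among sodium pores (0.480). Only 24 of the 115 genes with a known transcript length reached 1 CPM per kb, and most families were therefore measured through few genes. The median channel gene had 0.601 CPM in E11.5 controls, where the median of all genes with a count at that age had 16.1.

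The make-up of the channel transcripts differed between ages and, for some families, between genotypes. As a share of all channel CPM per kb, tandem-pore channels made up 34.3% ± 6.71 in E11.5 controls and 42.7% ± 5.88 in E11.5 RarαDN, and 6.47% ± 3.46 in E13.5 controls and 17.98% ± 1.26 in E13.5 RarαDN (SD, n = 4, 4, 4 and 3). The E13.5 ranges did not overlap (2.38% to 10.6% and 16.5% to 18.8%), while those at E11.5 did. Inward rectifiers had 10.9% ± 3.89 in E11.5 controls and 1.75% ± 1.68 in E11.5 RarαDN, with separate ranges, and then 5.41% ± 3.15 and 12.9% ± 2.49 at E13.5, again separate and in the opposite direction. Both families rest largely on 1 gene each, Kcnk5 and Kcnj12. Calcium auxiliary subunits had 37.2% ± 6.07 in E13.5 controls and 24.4% ± 5.28 in E13.5 RarαDN, ranges that did not overlap (30.3% to 43.8% and 18.8% to 29.3%), and near 19% in both E11.5 groups (19.2% ± 1.13 and 18.8% ± 4.98). Sodium channel pores and Hcn channels each stayed at or under 1.63% on average in every group.

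**Figure D2:**
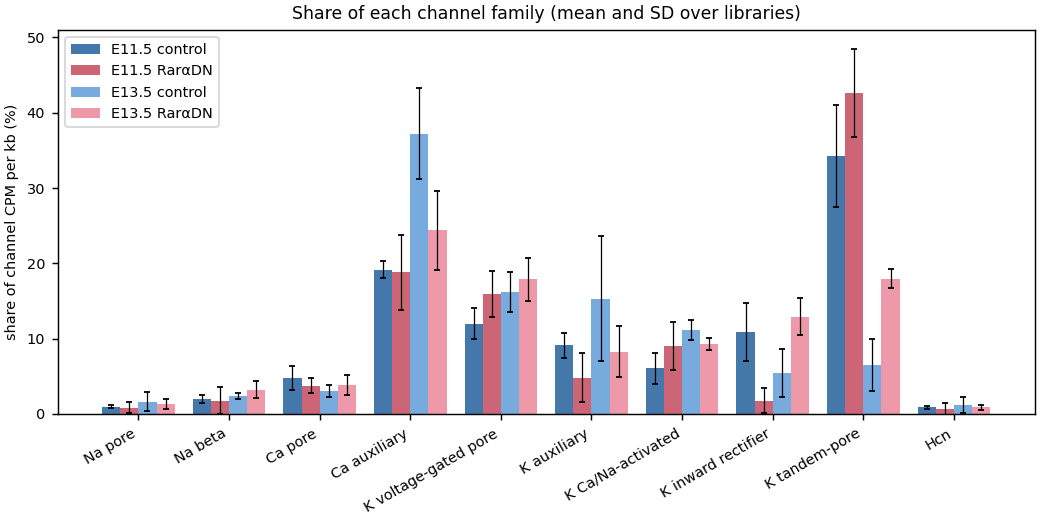
Share of each channel family in the summed channel level (CPM per kb, percent), as the mean of 4, 4, 4 and 3 libraries with the SD as error bar. The tandem-pore bars fall from 34.3% in E11.5 controls to 6.47% in E13.5 controls, and the inward rectifier bars are lower in RarαDN at E11.5 (1.75% against 10.9%) and higher at E13.5 (12.9% against 5.41%).

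To test each gene, RarαDN was compared with control within each age by edgeR's quasi-likelihood test over all genes that passed its filter on low counts, and p-values were adjusted over all genes tested (Benjamini-Hochberg). At E11.5 the filter kept 31 of the 116 channel genes. Of these, 4 were lower (12.9%, where 2.93% of all tested genes were lower) and 1 was higher (3.23%, against 3.07% of all tested genes). The median log2 fold change was −0.65 over the 31 and −0.05 over all 12427 tested genes. On leaving out each library in turn, the count of lower genes ran from 2 (of 34 tested, without control 4) to 8 (of 36, without RarαDN 1). The share of all genes called in these fits is not given here, so the counts are not set against a background. The median over the channel genes then ran from −1.31 (without RarαDN 2) to −0.25 (without control 2). In 1 fit of all 4 groups the count was 11 of 63 (17.5%, against 3.98% of all genes tested there). With the replicate numbers fitted as a block the count was 1 of 31 and the median −1.87, again without the share of all genes. Of the 31, 8 were lower and 3 were higher in every RarαDN library than in any control (8.96% and 6.71% of all tested genes). At E13.5 the filter kept 43 of the 116, of which 0 were lower (5.55% of all tested genes) and 1 was higher (2.33%, against 2.78% of all tested genes), so that the called share lay at or under the background. The median log2 fold change was −0.63 over the 43 and 0.06 over all 12085 tested genes. With limma-voom these medians were 0.02 and 0.17, and with the replicate block 0.40 and 0.18. Of the 43, 3 were lower and 3 were higher in every RarαDN library than in any control (6.98% each, against 13.3% and 12.7% of all tested genes). At an unadjusted p under 0.05 there were 10 of the 31 at E11.5 (32.3%, against 19.4% of all tested genes) and 6 of the 43 at E13.5 (14%, against 23.6% of all tested genes), and DESeq2 called 1 lower and 3 higher at E13.5 (2.33% and 6.98%, against 9.14% and 5.11% of all tested genes). A gene can pass the filter through the group in which it is high, so the tested genes are not a sample of all 116.

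**Figure D3:**
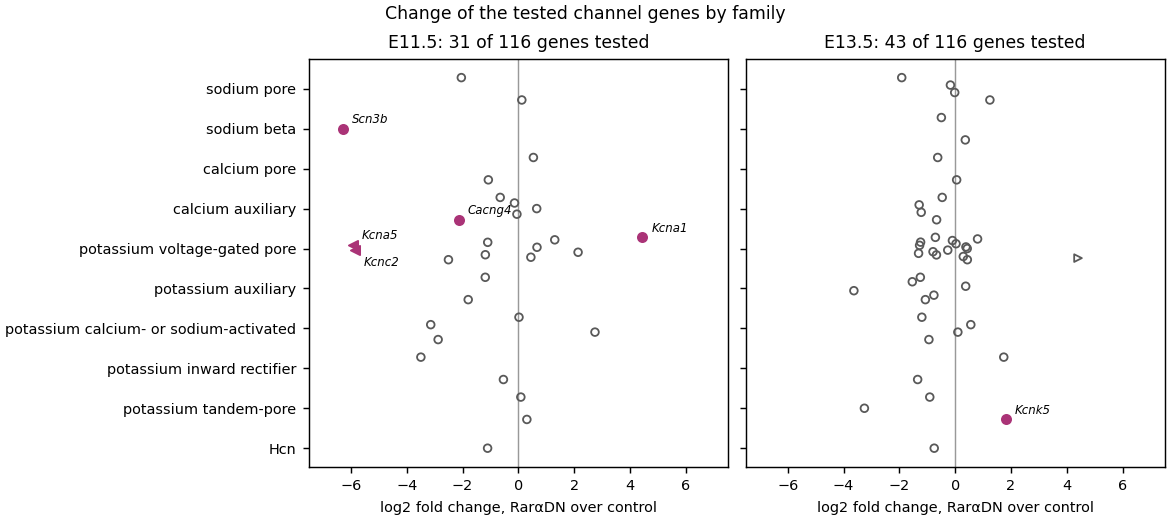
Log2 fold change of RarαDN over control for the 31 channel genes tested at E11.5 (left) and the 43 tested at E13.5 (right), by family; filled symbols passed an adjusted p of 0.05 (edgeR) and are named. Triangles mark genes at 0 in every library of a group, drawn at the least fold change that 3 counts over that group allow, as for Kcna5 and Kcnc2 at E11.5.

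Among sodium channel subunits at E11.5, Scn3b fell nearly to 0. Scn3b encodes a beta subunit that modulates gating and surface expression of the pore and is abundant in developing neurons. The E11.5 control libraries had 9.57, 7.36, 5.42 and 11.3 CPM and the RarαDN libraries 0, 0.323, 0 and 0, the single value above 0 resting on 4 counts. The log2 fold change was −6.30 (SE 1.17, adjusted p = 0.0104, edgeR), and the groups did not overlap. At E13.5 Scn3b had 5.35 ± 2.74 CPM in controls (SD, n = 4) and 6.87 ± 1.89 in RarαDN (n = 3), a log2 difference of 0.36 (SE 0.67, adjusted p = 0.804). The Scn3b call at E11.5 held in each of the 17 alternative analyses.

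No sodium channel pore passed the test at either age. Scn8a, the pore typical of mature axon initial segments, was at 7.48 ± 2.05 and 8.15 ± 5.32 CPM at E11.5 (SD, n = 4 each; adjusted p = 0.949, edgeR). Scn11a, a pore of sensory and enteric neurons, had the lowest p among pores, with 1.98 ± 0.63 and 0.467 ± 0.664 CPM at E11.5 (adjusted p = 0.416) and 4.40 ± 4.00 and 1.16 ± 0.363 CPM at E13.5 (n = 4 and 3, adjusted p = 0.348), overlapping at both ages. Scn3a and Scn9a, pores of embryonic and peripheral neurons, each had a count in every E11.5 control (2 to 16 and 6 to 15) and none in any E11.5 RarαDN library, but were too low for the E11.5 test.

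Calcium channel pores did not pass the test at either age. Cacna1h, which encodes a low-voltage-activated T-type pore, had 39.5 ± 27.1 CPM in E11.5 controls and 18.7 ± 7.83 in E11.5 RarαDN (SD, n = 4 each; log2 fold change −1.08, SE 0.53, adjusted p = 0.298, edgeR), with controls spread from 17.2 to 72.2 CPM. At E13.5 it had 16.3 ± 13.3 and 16.9 ± 10.9 CPM (n = 4 and 3). Cacna1a, the P/Q-type pore of presynaptic terminals, had 9.05 ± 3.09 and 5.87 ± 2.27 CPM at E13.5 (n = 4 and 3, adjusted p = 0.584). The groups overlapped for both genes.

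Among calcium channel auxiliary subunits at E11.5, Cacng4 fell. Cacng4 is a member of the gamma family whose best-known role is to traffic AMPA-type glutamate receptors. It had 22.8, 18.8, 37.0 and 38.6 CPM in the controls and 2.91, 10.7, 6.59 and 6.45 CPM in RarαDN, without overlap. The log2 fold change was −2.13 (SE 0.46, adjusted p = 0.0213, edgeR), but the adjusted p rose to between 0.0534 and 0.0878 without control 1, control 3, control 4 or RarαDN 4. At E13.5 the Cacng4 levels overlapped (13.9 ± 6.76 and 8.73 ± 2.03 CPM, SD, n = 4 and 3; adjusted p = 0.525). Cacng5, a relative of Cacng4, had 4, 4, 19 and 4 counts in the E11.5 controls and none in E11.5 RarαDN, and at E13.5 none in controls and 5, 3 and 27 counts in RarαDN.

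Cacnb3 was the calcium channel gene with a call for the difference between the ages, one that was lost in 15 of 24 alternative analyses. At E11.5 the controls had 24.8, 28.9, 31.4 and 37.2 CPM and RarαDN 13.6, 61.2, 59.3 and 58.4 (log2 fold change 0.65, SE 0.42, adjusted p = 0.438, edgeR). Library 1 of RarαDN lay below every control and the other three above, and without that library the log2 fold change was 1.02 (adjusted p = 0.0274). At E13.5 the controls had 63.5, 41.3, 103 and 118 CPM and RarαDN 20.7, 34.2 and 50.1 (log2 fold change −1.22, SE 0.40, adjusted p = 0.0947). The difference between the effects, E13.5 minus E11.5, was −1.93 on the log2 scale (SE 0.62, adjusted p = 0.0473). Besides Cacnb3 and Cacng4, each calcium auxiliary subunit gave an adjusted p of 0.28 or more (edgeR) at every age at which it was tested.

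Voltage-gated potassium channel pores gave the most calls, with genes in both directions at E11.5. Kcna5, a delayed rectifier pore of the Shaker family, fell from 5.10, 4.53, 4.15 and 5.32 CPM in the controls (56, 40, 36 and 58 counts) to 0 counts in all 4 RarαDN libraries. Against 3 counts over the RarαDN libraries, Kcna5 was at least 60.6-fold lower (adjusted p = 0.00794, edgeR). Kcnc2, a Shaw-family pore of fast-spiking neurons, fell from 4.10, 2.04, 5.42 and 6.69 CPM (45, 18, 47 and 73 counts) to 0 counts in all 4, at least 57.9-fold (adjusted p = 0.0108). Every E11.5 control held counts of both genes, whereas at E13.5 they ran from 0.298 to 21.7 CPM (Kcna5) and from 0 to 12.4 CPM (Kcnc2) among controls. E13.5 RarαDN was less spread, with 8.28, 9.33 and 9.46 CPM of Kcna5 and 5.09, 3.37 and 6.09 CPM of Kcnc2, and the groups overlapped (adjusted p = 0.974 and 0.993). The Kcnc2 call at E11.5 gave an adjusted p of 0.0524 without control 4.

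Kcna1, another Shaker-family pore that sets the threshold of axonal firing, rose at E11.5. The controls had 0.455, 0.340, 3.11 and 2.57 CPM and RarαDN 10.1, 52.1, 40.3 and 39.0 CPM, without overlap (log2 fold change 4.44, SE 0.79, adjusted p = 0.00812, edgeR). Library 1 of RarαDN was the lowest of the 4 and still more than 3-fold above the highest control. With limma-voom the adjusted p of Kcna1 was 0.0509. The summed melanoblast and leukocyte genes were higher in the same libraries, as given above, and their part in the Kcna1 rise was not tested. At E13.5 Kcna1 was at 0 in 6 of the 7 libraries and had 2 counts in the other.

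**Figure D4:**
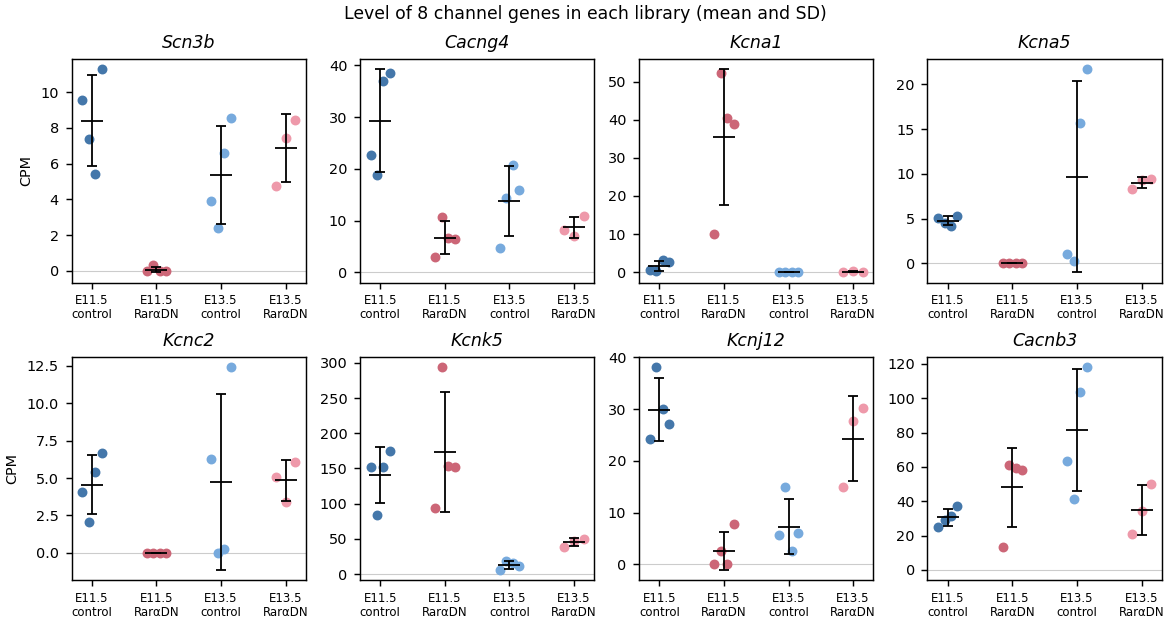
Level of 8 channel genes (CPM, TMM-scaled within each age) in each of the 15 libraries; points are libraries, and bars give the mean and SD of each group. Scn3b, Kcna5 and Kcnc2 lie at or near 0 in all 4 E11.5 RarαDN libraries (Kcna5 and Kcnc2 are also low in some E13.5 controls), Kcna1 is high there (10.1 to 52.1 CPM), and Kcnk5 separates the E13.5 groups (5.76 to 19.1 against 39.0 to 50.1 CPM).

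Other voltage-gated potassium pores did not pass the test. Kcna6, the most abundant per kb, had 22.3 ± 13.5 and 35.3 ± 21.0 CPM at E11.5 (SD, n = 4 each; adjusted p = 0.577, edgeR). At E13.5 it had 19.0, 13.4, 10.3 and 21.3 CPM in controls and 6.84, 8.43 and 5.06 in RarαDN, which do not overlap (log2 fold change −1.24, SE 0.47), with an adjusted p of 0.140. Kcnq5, which contributes to the M-current that limits repetitive firing, had no count in the E13.5 controls and 13, 14 and 24 counts in the E13.5 RarαDN libraries, at least 21.1-fold higher (adjusted p = 0.0662). It passed the threshold under a stricter filter, with DESeq2 and with limma-voom (adjusted p = 0.0283, 0.0429 and 0.0499).

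The promoters of 4 genes with a call or with opposite directions at the 2 ages are shown: Kcna5 and Kcnc2 (at 0 in E11.5 RarαDN), Kcnj12 (lower, then higher) and Kcnk5 (higher at E13.5). Those of Scn3b, Cacng4 and Kcna1, also called at E11.5, are not shown. The sequences are those of RefSeq on GRCm38.p6, from 250 bases before to 50 bases after the most upstream annotated start, which matched 81 of the 116 genes by symbol. Capitals mark matches, on either strand, to AGGTCA or GGTTCA, hexamers that retinoic acid receptor binding sites contain, to TTCAGCACC, the left part of the element bound by the neuronal repressor REST, or to CAGCTG, an E-box that proneural basic helix-loop-helix factors bind.
Kcna5, chr6:126535506-126535805, minus strand: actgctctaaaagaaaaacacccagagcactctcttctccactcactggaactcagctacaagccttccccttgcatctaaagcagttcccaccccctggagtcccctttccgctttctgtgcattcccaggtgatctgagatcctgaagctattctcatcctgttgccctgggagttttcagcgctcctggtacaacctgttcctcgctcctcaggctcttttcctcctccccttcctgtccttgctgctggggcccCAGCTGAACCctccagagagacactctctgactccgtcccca
Kcnc2, chr10:112269767-112270066, plus strand: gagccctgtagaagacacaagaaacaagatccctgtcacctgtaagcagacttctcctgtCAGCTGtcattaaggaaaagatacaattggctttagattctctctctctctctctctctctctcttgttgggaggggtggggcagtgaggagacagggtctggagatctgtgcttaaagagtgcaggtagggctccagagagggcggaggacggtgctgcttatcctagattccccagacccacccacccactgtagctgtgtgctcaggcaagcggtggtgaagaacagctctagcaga
Kcnj12, chr11:61065554-61065853, plus strand: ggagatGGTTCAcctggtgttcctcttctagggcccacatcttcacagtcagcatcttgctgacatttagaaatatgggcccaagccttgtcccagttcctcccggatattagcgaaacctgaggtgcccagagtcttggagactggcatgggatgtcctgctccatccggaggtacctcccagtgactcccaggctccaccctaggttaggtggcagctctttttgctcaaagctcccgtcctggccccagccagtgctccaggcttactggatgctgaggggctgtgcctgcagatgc
Kcnk5, chr14:20181733-20182032, minus strand: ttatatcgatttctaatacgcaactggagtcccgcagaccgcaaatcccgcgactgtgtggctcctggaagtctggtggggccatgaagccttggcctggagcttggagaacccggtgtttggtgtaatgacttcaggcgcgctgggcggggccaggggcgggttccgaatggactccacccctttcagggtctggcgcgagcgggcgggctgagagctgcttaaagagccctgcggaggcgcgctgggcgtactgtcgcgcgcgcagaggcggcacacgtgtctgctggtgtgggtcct
The capitals of Kcna5 join CAGCTG and an overlapping GGTTCA on the other strand. Kcnc2, which has 4 annotated starts, held 1 CAGCTG in the window of the most upstream one. Kcnj12 held 1 GGTTCA, and Kcnk5 held none of the 4 motifs. Of all 27025 promoters of this length, 16.0% held AGGTCA, 10.4% GGTTCA, 0.37% TTCAGCACC and 16.1% CAGCTG. Of the 81 channel promoters, 8.64%, 14.8%, 1.23% and 25.9% did so. These matches describe letters in a window and were not tested as sites.

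Channel genes with a count in every E11.5 control and none in any E11.5 RarαDN library numbered 14 of the 114 with a count at that age (12.3%, where 2.13% of all 16658 genes with a count did so), and none showed the reverse (0.066% of all). Besides Kcna5, Kcnc2, Scn3a, Scn9a and Cacng5, already described, these included the A-type pores Kcna4 and Kcnd2, the Shaw-family pore Kcnc1, the Elk-type pores Kcnh3 and Kcnh4, and the tandem-pore channels Kcnk1 and Kcnk10. Most rested on few counts: apart from Kcna5 and Kcnc2, the means ran from 0.674 CPM (Kcnd2) to 2.35 CPM (Kcnh3) in controls, and the bound of the fold change from 8.56 (Kcnd2) to 29.9 (Kcnh3). Kcnh3 had 17, 2, 36 and 38 counts in the controls. The share over all genes was not matched for level, and channel genes were low compared with most genes, as the medians above show. At E13.5 no channel gene had a count in every control and none in RarαDN (0.0641% of all genes with a count), and 4 of the 94 with a count showed the reverse (4.26%, where 0.577% of all 15607 did so), among them Cacng5, Kcnq5 and Kcng4, a modifier subunit that forms no channel alone, with 4, 4 and 3 counts in RarαDN.

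**Figure D5:**
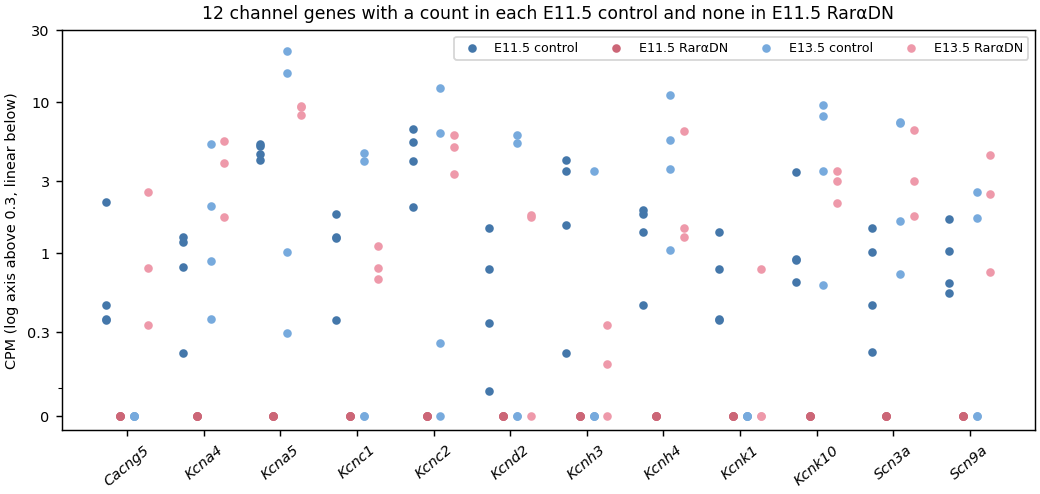
CPM of 12 channel genes with a count in every E11.5 control and none in E11.5 RarαDN, in all 15 libraries (log axis above 0.3 CPM, linear below). All 4 E11.5 RarαDN libraries lie at 0 for each gene by the way the genes were chosen, and at E13.5 Kcna4, Kcna5, Kcnc2, Kcnh4, Kcnk10 and Scn3a, among others, were above 0 in all 3 RarαDN libraries.

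The potassium channel auxiliary subunits did not pass the test at either age. Kcnip3, a calcium-binding subunit of A-type channels that also acts as a transcriptional repressor, had 12.03, 17.8, 20.8 and 22.7 CPM in E11.5 controls and 9.67, 0.888, 10.6 and 0 in RarαDN. These groups did not overlap, but the spread within RarαDN left an adjusted p of 0.380 (log2 fold change −1.80, SE 1.03, edgeR). At E13.5 Kcnip1, a further calcium-binding subunit of A-type channels, had the lowest p of the family, with 9.87, 0.149, 7.36 and 5.36 CPM in controls and 1.43, 0 and 0 in RarαDN (adjusted p = 0.247).

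Among the calcium- or sodium-activated potassium channels, Kcnn2, a small-conductance channel that underlies the afterhyperpolarization, had 1.46, 0.793, 1.27 and 2.29 CPM in E11.5 controls and 3.76, 14.1, 18.9 and 2.58 CPM in E11.5 RarαDN. Every RarαDN library lay above every control, with an adjusted p of 0.0747 (log2 fold change 2.74, SE 0.80, edgeR), and DESeq2 gave an adjusted p of 0.00727. Kcnn1, its relative, and the sodium-activated channel Kcnt2, both named after their values were seen, lay the other way without overlap (log2 fold changes −3.14 and −2.88, adjusted p = 0.121 and 0.233). Kcnmb4 had 3.91 ± 1.25 and 3.95 ± 2.27 CPM at E11.5 (SD, n = 4 each). At E13.5 it had 8.63, 10.1, 14.3 and 11.1 CPM in controls and 5.09, 4.50 and 4.87 in RarαDN, which did not overlap (log2 fold change −1.19, SE 0.51, adjusted p = 0.187). No member of the family passed the test.

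Kcnj12, an inward rectifier that stabilizes the resting potential, showed opposite differences at the 2 ages. At E11.5 it had 24.1, 38.2, 30.1 and 27.1 CPM in controls and 0, 2.66, 0 and 7.86 CPM in RarαDN (log2 fold change −3.49, SE 1.14, adjusted p = 0.108, edgeR). At E13.5 it had 5.65, 14.9, 2.63 and 5.97 CPM in controls and 15.0, 27.7 and 30.2 CPM in RarαDN (log2 fold change 1.74, SE 0.57, adjusted p = 0.0945). The groups did not overlap at either age, although at E13.5 control 2 and RarαDN 1 were nearly equal, and neither difference alone passed the threshold. The difference between the effects was 5.16 on the log2 scale (SE 1.41, adjusted p = 0.0220), and 0.0592 without both E13.5 controls rich in hemoglobin transcripts. At E11.5 the adjusted p was 0.0479 without RarαDN 4, and at E13.5 it was 0.0320 without control 2.

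Kcnk5 was the single channel gene that passed the test at E13.5, and it was higher in RarαDN. It had 5.76, 19.1, 15.0 and 11.7 CPM in controls and 39.0, 47.0 and 50.1 CPM in RarαDN (log2 fold change 1.82, SE 0.40, adjusted p = 0.0216, edgeR). The lowest RarαDN library had more than 2 times the level of the highest control. The adjusted p was between 0.0518 and 0.0903 without control 3 or any 1 RarαDN library, and 0.0855 once the trend of the fold changes with transcript length was removed. At E11.5 it had 151, 84.0, 153 and 175 CPM in controls and 93.7, 294, 153 and 153 CPM in RarαDN (adjusted p = 0.692). Every E11.5 library lay above every E13.5 library, although the ages were scaled separately. The summed glial and progenitor genes were higher in the same E13.5 RarαDN libraries. Of the 9 tested, 1 passed the test, Ednrb (326 ± 79.6 and 1004 ± 145 CPM, SD, n = 4 and 3, adjusted p = 0.00472, edgeR), and 1, Foxd3, had a negative fold change. The part of these genes in the Kcnk5 result was not tested. The effects at E11.5 and E13.5 differed by 1.45 (SE 0.52), with an adjusted p of 0.0742.

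Hcn channels, which carry the depolarizing current activated by hyperpolarization, were near the limit of detection. Hcn3 was the only member tested, with 3.48 ± 0.38 and 1.59 ± 1.99 CPM at E11.5 (SD, n = 4 each; adjusted p = 0.660, edgeR) and 3.57 ± 4.45 and 2.11 ± 0.118 CPM at E13.5 (n = 4 and 3; adjusted p = 0.804). The groups overlapped at both ages.

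Whether the RarαDN effect differed between the ages was tested by an interaction term in 1 fit of all 15 libraries. The filter on low counts kept 63 of the 116 channel genes, and 9 passed the threshold (14.3%, where 14.5% of all tested genes did), so that the called share matched the background. In 8 of the 9 the effect was more positive at E13.5 (7.34% of all tested genes) and in 1, Cacnb3, more negative (7.20%). Scn3b had the lowest adjusted p (0.00337, difference 6.59, SE 1.29), followed by Kcna5 (0.0101), Kcnc2 (0.0210) and Kcnj12 (0.0220). Kcna4 (0.0240), Kcnh4 (0.0336), Kcnk10 (0.0353) and Scn3a (0.0442) were too low for a test at E11.5 alone and had no count in E11.5 RarαDN, so that the fitted size of the difference depends on the prior count and is not a bound. Their E13.5 levels overlapped between genotypes: Kcna4 had 2.14 ± 2.19 and 3.74 ± 1.89 CPM, Kcnh4 5.36 ± 4.31 and 3.07 ± 2.94, Kcnk10 5.46 ± 4.13 and 2.90 ± 0.685, and Scn3a 4.26 ± 3.57 and 3.77 ± 2.46 (SD, n = 4 controls and 3 RarαDN). Without both hemoglobin-rich E13.5 controls, 3 of the 9 kept their call: Scn3b, Kcna5 and Kcnc2. Over 24 alternatives these 3 lost it in none, Kcnj12 in 1, Kcna4 in 5, Kcnh4 in 7, Kcnk10 in 13, Cacnb3 in 15 and Scn3a in 19.

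Genes outside the symbol rule were taken from a list of 26. Most anchor, bind or silence channels, and others (Nalcn, Hvcn1, Tpcn1, Tpcn2, Clcn2, Clcn3 and Ano1) are channels or transporters of other families. At E11.5, 17 of the 26 were tested and 4 were lower, where 2.93% of all tested genes were. These were Nfasc and Nrcam, cell adhesion molecules that cluster sodium channels at the axon initial segment, Fgf13, which binds the sodium channel tail, and the scaffold Dlg2. Nfasc had 28.1, 28.3, 51.4 and 62.1 CPM in E11.5 controls and no count in RarαDN, at least 539-fold lower (adjusted p = 0.000252, edgeR). Fgf13 went from 119 ± 21.1 to 21.4 ± 7.14 CPM (SD, n = 4 each; adjusted p = 0.000787), Nrcam from 121 ± 51.1 to 27.7 ± 17.9 (adjusted p = 0.0335), and Dlg2 from 3.63 ± 1.87 to 0, at least 46.1-fold (adjusted p = 0.0132). None of the 17 was higher (3.07% of all tested genes). At E13.5, 19 were tested, none was lower (5.55% of all tested genes) and 1 was higher (2.78% of all tested genes). This was Rest, the repressor of neuronal genes in other cells, with 16.4, 17.9, 20.9 and 39.99 CPM in controls and 59.2, 56.1 and 63.8 in RarαDN (log2 fold change 1.33, SE 0.33, adjusted p = 0.0372). At E11.5 Rest had 57.8 ± 9.45 and 110 ± 36.3 CPM (n = 4 each; adjusted p = 0.0908).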

How the data were processed

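RNA was sequenced from flow-sorted ENCDC of single E11.5 stomachs and E13.5 colons. Each library was sequenced in 2 runs, which the authors merged. They discarded reads from repeats and ribosomal RNA, aligned the rest with RUM, and deposited a table of raw counts, 1 row per transcript. Genome build, annotation release and use of strand: not given in the sources used here. Quantile-normalized log2 values in the same table and the authors' own comparisons (log2 fold changes and FDR) were not used.

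For each gene the transcript marked as best by the authors was taken (32 channel genes had more than 1 transcript, and in 18 of them it had the largest total), and 43170 rows with no gene name were left out. edgeR 4.0.16 (R 4.3.3) with TMM scaling, filterByExpr and robust quasi-likelihood tests gave each age's contrast and the interaction, with Benjamini-Hochberg adjustment at 0.05 over all genes tested. The SE is the log2 fold change divided by the root of the F statistic. A gene at 0 in a group was set against 3 counts over that group. Folds given as "at least" rest on that setting, which treats reads as independent counts. The libraries have no molecular identifiers, so copies made by amplification are not told apart. Spread between libraries is not covered either: at E11.5 Kcnd3 had 76 counts in RarαDN library 4 and none in the other RarαDN libraries. The script was tested on simulated data. Levels per kb used GENCODE transcript lengths, which Scn9a lacks.

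The members, gene lists and rules were chosen with earlier results of these data known. Genes named are those that passed a test, the most abundant per kb and the lowest p in each family without a call, and those at 0 throughout a group; Cacng4 and Kcnk10 overlap 1 further RefSeq gene each, as does Scn3a. Groups came from the labels; each library is 1 embryo's organ. Alternatives were another scaling (RLE), other filters, DESeq2 1.42.0, limma-voom 3.58.1, another transcript per gene, a replicate block, removal of the trend with length, 1 fit of all groups, and leaving out libraries. Some genes that the naming rule takes are not reported here.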

Additional observations from a re-analysis of the deposited data

Results flagged for a closer look

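Within groups of 4 libraries, 39 were checked over 14 channel genes for a value far from the other three, by Dixon's criterion, which chance exceeds in about 1 group in 20, and 2 exceeded it, about as many as chance gives. Cacnb3 in E11.5 RarαDN library 1 was at 13.6 CPM, where the median of the other three was 59.3. Scn3b in E11.5 RarαDN library 2 was at 0.323 CPM, where the others were at 0, and any count beside 3 libraries at 0 meets the criterion.

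The RarαDN effect differed between E11.5 and E13.5 by the interaction test for 9 of 63 channel genes, 14.3% where 14.5% of all tested genes did so, and 3 of the 9 (Scn3b, Kcna5 and Kcnc2) kept the call without both hemoglobin-rich E13.5 controls. The call was lost in 13, 19 and 15 of 24 alternatives for Kcnk10, Scn3a and Cacnb3. The difference of log2 fold changes, E13.5 minus E11.5, was −1.93 for Cacnb3, 5.16 for Kcnj12, 6.59 for Scn3b, 8.23 for Kcna5, 8.32 for Kcnc2, 6.68 for Kcna4, 5.75 for Kcnh4, 5.71 for Kcnk10 and 5.55 for Scn3a. The last 4, Kcna5 and Kcnc2 had no count in E11.5 RarαDN, which makes their size depend on the prior count.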

How the results depend on the processing

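The 3 or 4 embryos per group and the low level of most channel genes limit the precision of every comparison. The replicate numbers do not pair the libraries (correlation of same-numbered deviations −0.196 to 0.236 at E11.5), and with the replicate block the E11.5 lower calls were 1 in place of 4 and the interaction calls 4 in place of 9. With the block the E11.5 adjusted p was 0.101 for Kcna5, 0.107 for Kcnc2 and 0.0607 for Cacng4. In 1 fit of all 4 groups 11 of the 63 channel genes tested there were lower at E11.5 (17.5%, against 3.98% of all tested genes). At E11.5 DESeq2 called 2 higher and limma-voom 0, in place of 1. At E13.5 the higher calls were 2 under the 1 CPM filter, 3 with DESeq2, 3 with limma-voom and 0 with the length trend removed, in place of 1, and DESeq2 called 1 lower in place of 0. With the length trend removed the interaction calls were 5. The cause of these shifts was not tested. Leaving out each library gave 2 to 8 lower and 1 to 3 higher at E11.5, 0 to 1 lower and 0 to 3 higher at E13.5, and 5 to 10 for the interaction. The number of channel genes tested changed between these fits. Apart from the 4-group fit and DESeq2 at E13.5, the share of all genes called is not given for the alternatives. Their counts are therefore not set against a background. The lowest E11.5 lower count was without control 4 and the highest without RarαDN 1 (8 lower, 3 higher), RarαDN 4 left out gave 2 higher, and the interaction fell to 5 without E11.5 control 3. The E13.5 higher count was 0 without control 3 or any 1 RarαDN library and 3, with 1 lower, without control 2. Over 39 gene comparisons and 723 alternatives, 609 kept their direction and side of the threshold, 74 lost the call, 15 gained one and 25 changed sign, all of the last in genes without a call. The sign changes were, at E11.5, Kcnmb4 (−0.0733 with limma-voom, −0.18 with the block, −0.16 with the length trend removed, −0.29 to 0.33 on leaving out each library), Scn8a (−0.15 with limma-voom, −0.12 with the block, −0.31 to 0.43 on leaving out each library, the lowest without RarαDN 3) and Kcnk5 (−0.0816 to 0.57 on leaving out each library, the lowest without RarαDN 2). At E13.5 they were Cacna1h (−0.52 with the length trend removed, −0.61 to 0.61 on leaving out each library), Hcn3 (1.11 with limma-voom, 1.14 with the block, 0.29 without both hemoglobin-rich controls, −1.17 to 0.51 on leaving out each library, the highest without control 3) and Scn8a (0.14 with limma-voom, 0.40 with the block, 0.0113 without both hemoglobin-rich controls, −0.25 to 0.24 on leaving out each library). The median log2 fold change of the channel genes tested at E11.5, −0.65, was −1.26 with limma-voom and −1.87 with the block, and that at E13.5, −0.63, was 0.02 with limma-voom and 0.40 with the block. With the length trend removed the medians were −0.45 at E11.5 and −0.76 at E13.5. Fold changes correlated with transcript length (Spearman's rho across genes, which are not independent replicates, −0.29 at E11.5 and 0.48 at E13.5).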
